A study of Mus musculus with 4 samples.

Results

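The Clca genes of the mouse were followed in colonic epithelial cells with and without Smad4 during experimental colitis. The family was taken as the rows of the deposited gene count table whose Ensembl ID carries 1 of 7 symbols in GENCODE M21 on GRCm38, namely Clca1, Clca2, Clca3a1, Clca3a2, Clca3b, Clca4a and Clca4b. All 7 were found among 31227 gene IDs, and they are all 7 protein-coding Clca genes of that annotation. The family was chosen by its levels in these same libraries, namely the opposite changes of its members between genotypes, so these changes are given as a description and carry no test.

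RNA was sequenced from 2 Smad4 KO libraries (replicates 1 and 2) and 2 WT libraries (replicates 1 and 3). The Smad4 KO mice lacked Smad4 in the epithelium, and the labels do not name the promoter that drove the deletion. Mice of both genotypes were 8 to 10 weeks old, drank 3.5% DSS (dextran sulfate sodium, which damages the colonic lining) for 5 days and were killed on day 7. Libraries of mice that drank no DSS were not analysed here, so the values compare genotypes under DSS and do not show what DSS did. The KO libraries held 61260099 and 67927291 counts, and the WT libraries 56018009 and 42577920. Levels are counts scaled to a common library total (CPM, with TMM scaling), and a mean ± SD is over n = 2 libraries. Whether the libraries of 1 genotype are from different mice is not stated, so every SD and p-value here measures the spread between libraries, which may be technical. In bulk samples such as these, fewer cells of a type and less RNA per cell cannot be told apart.

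CLCA proteins are secreted or membrane-anchored proteins with a metalloprotease domain that cleaves the protein itself and a von Willebrand factor type A domain. They were named as calcium-activated chloride channels but are not channels themselves, and human CLCA1 raises the calcium-activated chloride current carried by TMEM16A, the product of Ano1. In the gut the best known member is Clca1, a goblet cell product that is stored with the mucin Muc2, secreted into the mucus layer and able to cleave Muc2. Mouse Clca4a has been described in enterocytes, and mouse Clca2 in keratinocytes of stratified squamous epithelium.

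Smad4 itself was at 51.5 and 41.1 CPM in the KO libraries, against 152 and 180 CPM in the WT libraries (edgeR quasi-likelihood test, adjusted p = 0.00163), so 4 of 4 libraries went with their labels. The epithelial character of the samples was seen in both genotypes, since 8 epithelial markers summed to 15342 to 15941 CPM in KO and 15472 to 15807 CPM in WT. Single markers differed, with 4 of the 8 higher in KO, 1 lower and 3 not passing. Over all tested genes 15.2% passed, 8.83% higher and 6.40% lower in KO. Markers of other cells had much lower sums. Neutrophil markers summed to 108 to 110 CPM in KO, against 9.75 to 13.6 CPM in WT, with 4 of 6 tested members higher in KO and Camp and Mpo at 0 in all libraries. Lymphocyte markers summed to 25.6 to 29.5 CPM in KO and 10.1 to 12.6 CPM in WT, with 2 of 7 tested members higher. Most of this was Ptprc, a gene of leukocytes in general, at 17.9 ± 2.13 CPM in KO and 6.95 ± 0.256 CPM in WT. Its level is thus not particular to lymphocytes. The other that passed was Cd4, at 0.409 ± 0.0145 CPM in KO and 0 in WT, and 5 did not pass. Fibroblast markers summed to 63.9 to 68.5 CPM in KO and 38.0 to 38.1 CPM in WT (2 of 7 higher). Macrophage markers summed to 168 to 174 CPM in KO and 172 to 192 CPM in WT, but most of this was Cd14, at 135 ± 2.04 CPM in KO and 170 ± 15.5 CPM in WT, which did not pass. The other 7 had higher means in KO, and 2 of 8 passed, Lyz2 (4.02-fold higher) and Csf1r (2.52-fold higher). Vascular endothelial markers summed to 6.13 to 7.45 CPM in KO and 5.60 to 7.62 CPM in WT (0 of 4 passing). The part of these cells in the changes of the Clca genes was not tested.

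The Clca genes lie in a row on the minus strand of chromosome 3, over 370 kb from 144729677 to 145099443 (GRCm38). In the order of transcription they are Clca2, Clca1, Clca4a, Clca4b, Clca3b, Clca3a2 and Clca3a1. The pseudogene Clca4c-ps, between Clca4b and Clca3b, was not among the deposited gene IDs, so no level can be given for it. The row split by direction: Clca1 fell in KO and Clca2, at the same end, was low in all libraries, while the 5 genes that follow rose. In the fit across all genes 6 members passed the threshold of adjusted p = 0.05, 5 of them higher and 1 lower in KO. Of 15838 tested genes, 15.2% passed, 8.83% higher and 6.40% lower in KO. The genotypes did not overlap in 7 of 7 members, and in 59.4% of all tested genes. Since these values chose the family, nothing is read from its shares.

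Clca1, the goblet cell member (ENSMUSG00000028255, chromosome 3 from 145003817 to 145032776), had 2185 and 2099 CPM in the KO libraries, against 3986 and 4083 CPM in the WT libraries. Both KO libraries lay well below both WT libraries. The mean was 2142 ± 61.2 CPM in KO and 4035 ± 68.8 CPM in WT, a log2 fold change of -0.91 (SE 0.0411) or a 1.88-fold lower level. Over the 4 pairs of a KO with a WT library the log2 ratio ran from -0.96 to -0.87.

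Clca4b and Clca4a, a pair of neighbours 19.9 kb apart, changed most among the abundant members. Clca4b (ENSMUSG00000074195, 144910921 to 144932529) had 2452 and 2467 CPM in the KO libraries, against 493 and 470.1 CPM in the WT libraries. Its level was 5.10-fold higher in KO (log2 fold change 2.35, SE 0.0474). Clca4a (ENSMUSG00000068547, 144952480 to 144975045), the enterocyte form, had 622 and 613 CPM in the KO libraries, against 160.1 and 148 CPM in the WT libraries. This was a 4.0-fold higher level (log2 fold change 2.00, SE 0.0630). The genotypes did not overlap for either gene, and the spread within a genotype was at most 16.4 CPM for Clca4b and 8.32 CPM for Clca4a.

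The Clca3 group rose by less. Clca3b (ENSMUSG00000037033, 144822623 to 144849357), whose transcript has been reported from smooth muscle of the mouse, had 1163 and 1159 CPM in the KO libraries, against 619 and 655 CPM in the WT libraries. It was 1.82-fold higher in KO (log2 fold change 0.87, SE 0.0504). Smooth muscle markers summed to 2.85 to 4.86 CPM in KO and 2.52 to 3.84 CPM in WT. Of 5 tested members 0 passed, against 15.2% of all tested genes. The part of smooth muscle in the level of Clca3b was not tested.

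Clca3a2 and Clca3a1 were minor members. Clca3a2 (ENSMUSG00000028262, 144796559 to 144819494), known from the involuting mammary gland of the mouse, had 40.2 and 38.6 CPM in the KO libraries, against 15.9 and 21.8 CPM in the WT libraries (log2 fold change 1.07, SE 0.170). Clca3a1 (ENSMUSG00000056025, 144729677 to 144760977), known from lymphatic endothelium and secretory epithelia of the mouse, had 22.4 and 20.8 CPM in the KO libraries, against 6.72 and 8.07 CPM in the WT libraries (log2 fold change 1.55, SE 0.143). Both genes were higher in each KO library than in either WT library. The log2 fold change of Clca3a2 was 1.04 with KO replicate 1 left out and 1.10 with KO replicate 2 left out, and in these smaller fits, which called fewer genes in all, 5 members were past the threshold instead of 6. Lymphatic endothelial markers summed to 4.69 to 5.89 CPM in KO and 4.27 to 5.64 CPM in WT. Of 4 tested members 0 passed, against 15.2% of all tested genes, and Ccl21a was at 0 in all libraries.

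Clca2 (ENSMUSG00000036960, 145070263 to 145099443), the keratinocyte form, was near the limit of these libraries. It had 12 and 0 counts in the KO libraries, against 55 and 25 counts in the WT libraries, which is 0.200 and 0 CPM in KO and 0.970 and 0.573 CPM in WT. A count of 0 in KO replicate 2 allows up to 0.0450 CPM (3 counts; counting error only). All KO counts came from replicate 1, and the log2 fold change of -2.95 (SE 1.40) did not pass. With KO replicate 1 left out the KO group is at 0 and the fitted log2 fold change (-8.43) is no bound; with KO replicate 2 left out it was -1.94. Squamous markers summed to 9.17 to 10.6 CPM in KO and 2.33 to 2.57 CPM in WT. Of 6 tested members 2 were higher in KO, against 8.83% of all tested genes. These were Dsg3, at 5.13 ± 0.656 CPM in KO and 0.183 ± 0.260 CPM in WT, and Krt13. Krt4, Krt5 and Sprr3 were at 0 in all libraries. Dsg3 was not called by DESeq2 or with either KO library left out.

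**Figure D1:**
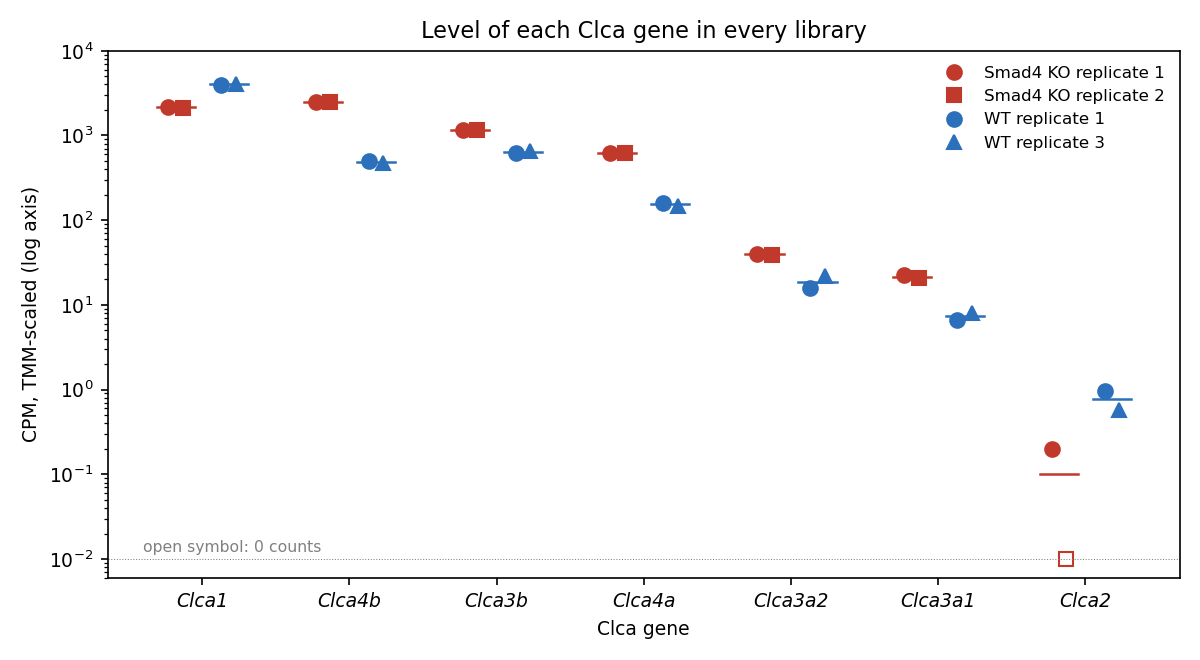
CPM of each Clca gene on a log axis, with 1 symbol for each library (red Smad4 KO, blue WT) and a line at the mean of each genotype. Clca1 sits lower in both KO libraries than in both WT libraries, Clca4b, Clca3b, Clca4a, Clca3a2 and Clca3a1 sit higher, and the open symbol marks the KO library with 0 counts of Clca2.

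The opposite changes partly offset each other in the sum of the family, while its make-up differed. All Clca genes together had 6484 and 6396 CPM in the KO libraries, against 5282 and 5388 CPM in the WT libraries, a 1.21-fold higher mean in KO. Without Clca1 the other members summed to 4298 ± 0.802 CPM in KO and 1300.0 ± 6.04 CPM in WT, which is 3.31-fold higher. Clca1 made up 33.3 ± 0.630% of the Clca counts in KO and 75.6 ± 0.229% in WT. Clca4b made up 38.2 ± 0.532% in KO and 9.03 ± 0.434% in WT, and so passed Clca1 as the member with most counts. Clca3b held 18.02 ± 0.134% in KO and 11.9 ± 0.317% in WT, and Clca4a 9.59 ± 0.00686% in KO and 2.89 ± 0.196% in WT. The remaining 3 members stayed below 1% in either genotype. These shares are ratios within a library and so do not depend on how libraries were scaled.

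**Figure D2:**
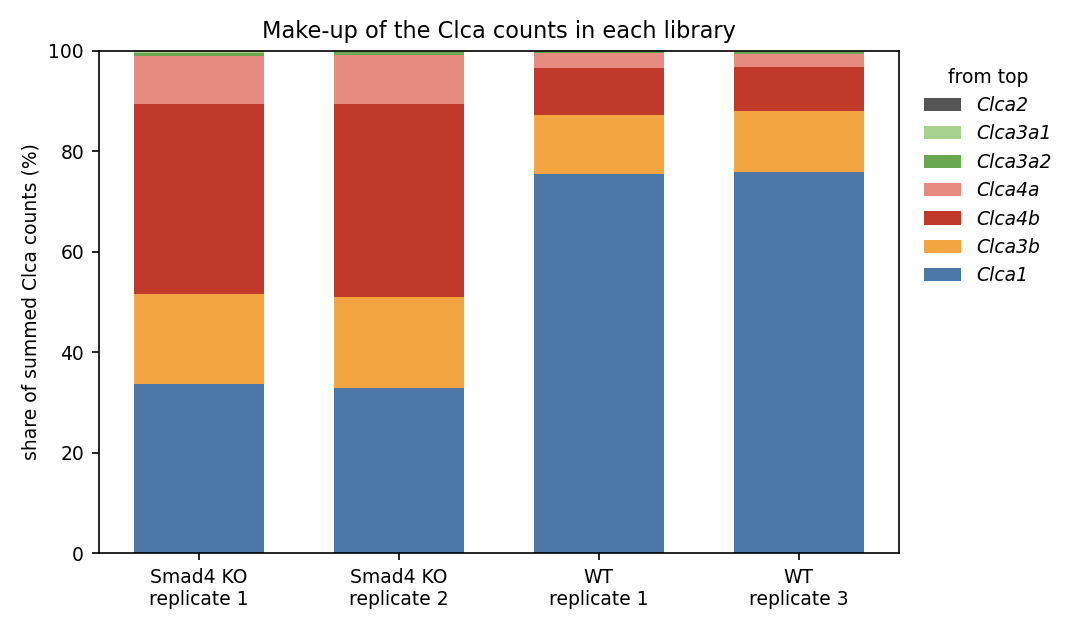
Each bar is 1 library and shows the percent of its summed Clca counts that each gene took, stacked. Clca1 takes 75.6% on average in WT and 33.3% in KO, where Clca4b takes 38.2%.

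Counts grow with transcript length, so levels were compared between members as CPM per kilobase of merged exon. In KO the order was Clca4b (821 ± 3.53 CPM per kilobase), Clca1 (567 ± 16.2), Clca3b (345 ± 0.762), Clca4a (206 ± 2.13), Clca3a2 (9.91 ± 0.292), Clca3a1 (5.54 ± 0.291) and Clca2 (0.0215 ± 0.0304). In WT it was Clca1 (1068 ± 18.2 CPM per kilobase), Clca3b (190 ± 7.70), Clca4b (161 ± 5.47), Clca4a (51.3 ± 2.77), Clca3a2 (4.74 ± 1.06), Clca3a1 (1.897 ± 0.246) and Clca2 (0.166 ± 0.0603). No neighbours in either order overlapped between libraries. Only the top 3 members differed in place between the genotypes: Clca4b was at the top in KO and below Clca1 and Clca3b in WT. Among all 15838 tested genes ranked per kilobase, Clca4b was 42nd in KO and 230th in WT, and Clca1 54th in KO and 26th in WT.

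How far the counts of neighbouring paralogues can be told apart was read from their transcripts in GENCODE M21. The transcripts of Clca4a and Clca4b were identical at 95.6% of 2996 aligned bases, and those of Clca3a1 and Clca3a2 at 96.4% of 3427. Clca3b matched Clca3a1 and Clca3a2 at 81.1% and 80.8%. Clca1 and Clca2 matched any other member at 60.0 to 65.8%. Of all 100-base windows of a transcript, 17.3% in Clca4a, 6.49% in Clca4b, 8.67% in Clca3a1, 8.86% in Clca3a2 and 0.552% in Clca3b occurred unchanged in another member or in Clca4c-ps. Of all 50-base windows, 37.1% in Clca4a, 24.8% in Clca4b, 24.9% in Clca3a1, 25.9% in Clca3a2 and 5.98% in Clca3b did so. Clca1 and Clca2 had no such window of either length. Read length is not stated, so which window comes nearer to the reads is not known. How reads that match several genes were treated is not stated, so the split within the Clca4 pair and within the Clca3a pair is uncertain, as is the part of Clca4a that it shares with Clca4c-ps. With the counts of each pair added before the fit, the log2 fold change was 2.27 for Clca4a with Clca4b and 1.22 for Clca3a1 with Clca3a2. As counted, Clca4a per Clca4b was 0.254 and 0.248 in the KO libraries and 0.325 and 0.316 in the WT libraries. Clca3a1 per Clca3a2 was 0.548 ± 0.0126 in KO and 0.397 ± 0.0376 in WT.

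Promoter windows of 250 bases before to 50 bases after the start were taken from RefSeq on GRCm38.p6, which held 5 of the 7 members (Clca2, Clca3a1, Clca3a2, Clca3b and Clca4b; Clca1 and Clca4a were not in the table). The 250 bases before the start are shown for Clca4b, the member that rose most, and for Clca3a1, the member that rose most in the Clca3 group, with TATATA in capitals. For Clca3a2 and Clca3b, whose starts are alike, the first 30 bases of a shared stretch are shown in capitals. All are on the minus strand and read 5′ to 3′.
Clca4b, chr3:144932530-144932779: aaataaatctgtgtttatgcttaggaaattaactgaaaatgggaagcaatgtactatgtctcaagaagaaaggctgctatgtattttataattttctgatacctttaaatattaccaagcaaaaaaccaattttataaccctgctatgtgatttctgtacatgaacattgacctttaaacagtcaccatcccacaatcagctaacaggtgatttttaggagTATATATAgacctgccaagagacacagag
Clca3a1, chr3:144760978-144761227: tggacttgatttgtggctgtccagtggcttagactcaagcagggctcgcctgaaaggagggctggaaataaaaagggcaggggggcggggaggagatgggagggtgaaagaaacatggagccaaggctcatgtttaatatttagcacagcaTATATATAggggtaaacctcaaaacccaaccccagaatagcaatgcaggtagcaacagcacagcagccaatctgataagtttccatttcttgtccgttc
Clca3a2, chr3:144819534-144819563: TATGCAAATATTCTGGCCGTGATTCAAATT
Clca3b, chr3:144849350-144849379: TATGCAAATATTCTGGCCGTGATTCAAATT

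Letters were searched on both strands of each window. TATATA, looked for after the sequences had been seen, began at position -29 in Clca4b and at -99 in Clca3a1, counted back from the start,, and 5.67% of 32851 RefSeq promoter windows held it. CAGAC, the core of Smad binding sites, was in 0 of the 5 member windows and in 49.6% of all windows. GGCGCC, a GC-rich Smad motif, was in none of the 5 and in 11.9% of all. GGAATG, the Tead motif, was in the window of Clca4b at position 28 after the start and in 14.7% of all. TTTATGG, a Cdx motif, was in none of the 5 and in 2.75% of all. CAGCTG, an E-box, was in the windows of Clca3a1 and Clca2 and in 16.3% of all. The shared stretch of Clca3a2 and Clca3b ran over 119 bases, from position -69 of Clca3a2 and -77 of Clca3b, with 1 mismatch. It runs past the start of both genes, and in Clca3a2 to the end of the window, so part of it is transcribed. The RefSeq start of Clca3b also lies inside the gene as annotated in GENCODE M21, which extends to 144849357. The level of Clca3b per kilobase was far above that of Clca3a2 in every library, at 345 to 346 against 9.70 to 10.1 in KO and 184 to 195 against 3.99 to 5.49 in WT.

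Around the row, few other genes were tested and 1 passed. Of 23 annotated genes within 500 kb other than the members, 7 were tested, and 1 rose and 0 fell. This is near the 15.2% of all tested genes that passed, so nothing is read from the count. The risen gene was Gm16233, an antisense RNA on the plus strand from 144947561 to 144954878 that overlaps the end of Clca4a. It had 2.81 and 2.40 CPM in the KO libraries, against 0.317 and 0.413 CPM in the WT libraries (7.13-fold higher in KO, edgeR adjusted p = 0.00849). Leaving out KO replicate 1 or KO replicate 2 ended this call (edgeR adjusted p = 0.0739 and 0.0530). Whether counting used the strand is not stated, so in the stretch where the genes overlap its reads cannot be told apart from those of Clca4a. The nearest genes outside the row did not pass: Odf2l, next to Clca2, was at 26.8 ± 3.56 CPM in KO and 19.6 ± 0.168 CPM in WT (edgeR adjusted p = 0.0765), and Sh3glb1, next to Clca3a1, at 149 ± 14.6 CPM in KO and 132 ± 8.96 CPM in WT (edgeR adjusted p = 0.291). The median log2 fold change of the 7 tested neighbours was 0.18, against 0.01 over all tested genes.

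**Figure D3:**
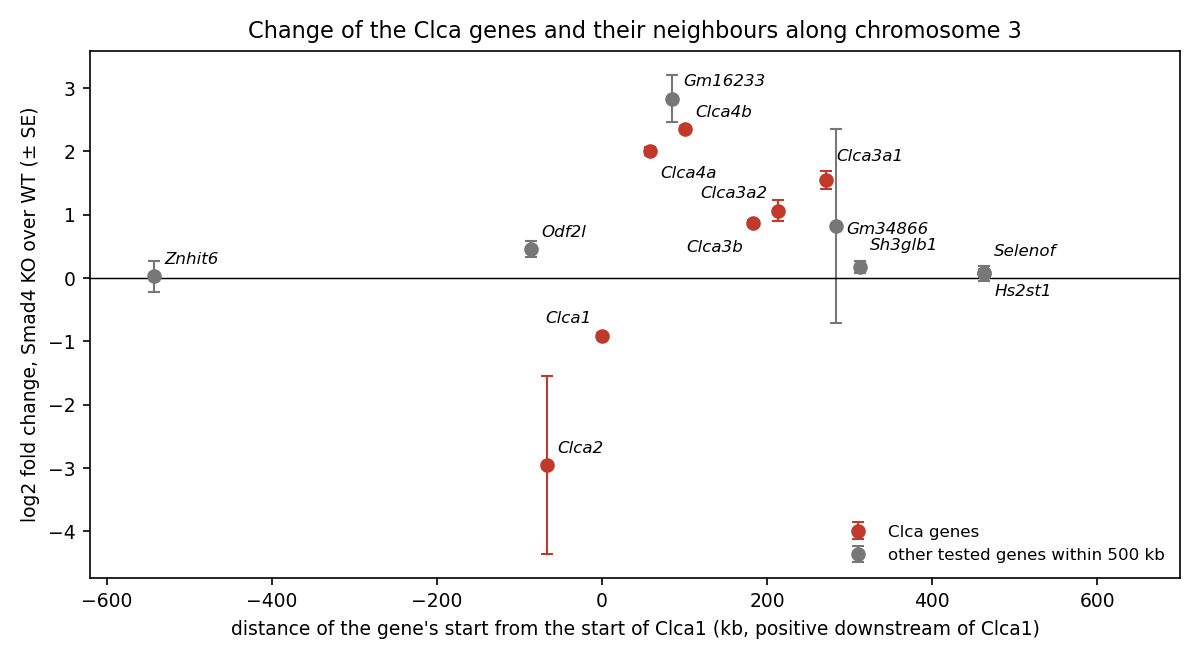
The log2 fold change of each Clca gene (red) and of the other tested genes within 500 kb (grey), with its SE, is placed by the distance of the gene's start from that of Clca1 in kb along the direction of Clca1 transcription. The genes after Clca1 rise up to 2.35 for Clca4b, Clca1 and Clca2 lie below 0, and the protein-coding genes on either side lie between 0.03 and 0.45.

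The listed goblet cell genes did not move with Clca1 as a group. Among 20 tested goblet cell genes, chosen without Clca1, 5 rose, 5 fell and 10 missed the threshold, with a median log2 fold change of 0.06 (0.01 over all tested genes). Over all tested genes 8.83% rose and 6.40% fell. Without WT replicate 1 the risen were 8, without KO replicate 2 they were 3, and the fallen were 3 without either KO library. Fcgbp and Reg4 fell, 1.98-fold and 4.16-fold (edgeR adjusted p = 0.000209 and 0.000289), and Muc2 rose 1.56-fold (edgeR adjusted p = 0.000515). Set against Muc2, the gel-forming mucin that Clca1 cleaves, Clca1 was at 0.154 and 0.147 in the KO libraries and 0.446 and 0.439 in the WT libraries. Set against Fcgbp, another abundant mucus protein, Clca1 was at 0.483 and 0.450 in the KO libraries and 0.441 and 0.444 in the WT libraries, so its mean, 0.466 ± 0.0236 in KO and 0.442 ± 0.00230 in WT, differed by about the SD within KO. Also among the risen genes was the goblet and Paneth cell ribonuclease Ang4, at 83.9 ± 4.85 CPM in KO and 34.8 ± 1.37 CPM in WT (edgeR adjusted p = 0.000986).

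Of the genes of chloride secretion, with which CLCA proteins have been linked, some fell and fewer rose. Among 17 tested members 6 fell, 1 rose and 10 missed the threshold, with a median log2 fold change of -0.18. Over all tested genes 6.40% fell and 8.83% rose. DESeq2 called 4 higher and 5 lower, limma-voom called 2 higher and 6 lower, the risen were 2 without WT replicate 3, and Best4 was at 0 in all libraries. Ano1, which encodes the calcium-activated chloride channel that human CLCA1 modulates, had 41.5 and 39.8 CPM in the KO libraries, against 191 and 201 CPM in the WT libraries. The KO level was 4.82-fold lower, with a log2 fold change of -2.27, an SE of 0.0717 and an edgeR adjusted p of 0.000197. Best2, a bestrophin anion channel of colonic goblet cells, fell 3.12-fold to 12.2 ± 0.273 CPM in KO, against 38.1 ± 1.59 CPM in WT (edgeR adjusted p = 0.000786). Cftr, the cyclic AMP-activated chloride channel, fell 1.80-fold to 90.2 ± 3.85 CPM in KO, against 162 ± 0.758 CPM in WT (edgeR adjusted p = 0.00173). Kcne3, the potassium channel subunit that helps to drive chloride secretion, fell 1.98-fold (edgeR adjusted p = 0.00141). The other fallen members, Itpr3 and Trpv6, handle calcium and are not chloride channels. The risen gene was Slc12a2, the cotransporter that loads chloride into the cell, at 511 ± 5.11 CPM in KO and 340 ± 3.22 CPM in WT (edgeR adjusted p = 0.00213).

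Absorptive colonocyte genes, the company of the enterocyte form Clca4a, changed both ways. Among 18 tested members 8 rose, 5 fell and 5 missed the threshold, with a median log2 fold change of 0.25. Over all tested genes 8.83% rose and 6.40% fell. The chloride and bicarbonate exchanger Slc26a3, on that list, fell 2.06-fold to 429 ± 15.7 CPM in KO, against 886 ± 53.2 CPM in WT. Clca4b per Slc26a3, which this fall raises in KO, was 5.73 ± 0.235 in KO and 0.545 ± 0.0513 in WT. Cyp2c55, a cytochrome P450 enzyme, rose 2.40-fold (edgeR adjusted p = 0.000298) and Car1, a carbonic anhydrase, 2.31-fold (edgeR adjusted p = 0.000515). Aqp8 and Slc5a8 fell, 3.37-fold and 2.42-fold (edgeR adjusted p = 0.000298 and 0.000312). The phosphate transporter Slc20a1 fell 3.43-fold to 47.1 ± 4.26 CPM in KO, against 161 ± 1.87 CPM in WT (edgeR adjusted p = 0.000456). Lypd8, the most abundant gene of the list and a colonocyte protein that keeps flagellated bacteria off the epithelium, was at 6704 ± 39.4 CPM in KO and 6647 ± 172 CPM in WT and did not pass (edgeR adjusted p = 0.860).

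Other enzymes that work on mucins or on the proteases of the epithelial surface changed both ways as well. Among 14 tested members 5 rose, 3 fell and 6 missed the threshold, with a median log2 fold change of 0.20. Over all tested genes 8.83% rose and 6.40% fell. Without KO replicate 2 the risen were 3, the fallen were 1 without either KO library, and Cpa6 was at 0 in all libraries. The transglutaminase Tgm3, which cross-links Muc2 in the mouse colon, fell 8.95-fold to 146 ± 7.39 CPM in KO, against 1306 ± 24.1 CPM in WT (edgeR adjusted p = 4.92e-05). Its paralogue Tgm2 rose 6.81-fold to 816 ± 37.3 CPM in KO, against 120 ± 6.27 CPM in WT (edgeR adjusted p = 9.03e-05). Mep1b and Mep1a, the subunits of meprin, a brush border protease of which the beta form cleaves Muc2 in the small intestine of the mouse, rose 2.14-fold and 1.76-fold (edgeR adjusted p = 0.000717 and 0.00113). Posterior Hox genes, which mark the distal gut, fell in the same KO libraries in 8 of 8 tested members (6.40% over all tested genes). The 9 listed genes summed to 151 to 153 CPM in KO and 630 to 662 CPM in WT. Whether the libraries came from different positions along the gut was not tested, nor was any part of position in the Clca changes.

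**Figure D4:**
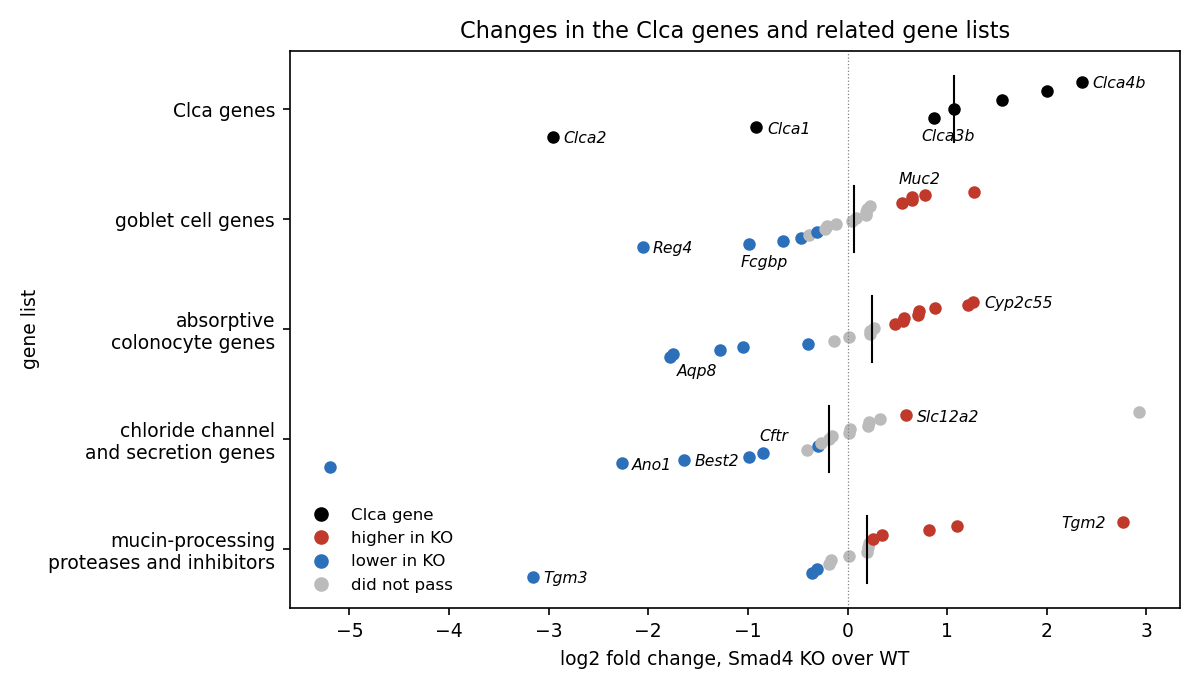
Each dot is 1 gene, placed by its log2 fold change of Smad4 KO over WT within its list, with a bar at the list's median; black dots are the Clca genes, and the other dots are red where higher, blue where lower and grey where the test was not passed. The Clca genes spread from -2.95 for Clca2 to 2.35 for Clca4b, and among chloride genes Ano1 stands at -2.27.

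For each member with a mean of at least 10 CPM, the genes of most similar profile were sought among 9150 named genes of that level. The measure was the Euclidean distance over the 4 libraries between log2(CPM + 1) values, each centred on the gene's own mean. With 4 libraries in 2 genotypes it mostly ranks genes by the size of their change. Nearest to Clca1 were Rasgef1b (distance 0.0173), Per2 (0.0331) and Pkp1 (0.0386), and nearest to Clca4b were Hoxb6 (0.0647), Pnliprp2 (0.129) and Acod1 (0.146). Nearest to Clca4a were Fam3c (0.0275), Car8 (0.0527) and Rassf4 (0.0560). Nearest to Clca3b were Zdhhc21 (0.0323), Tmem184c (0.0444) and Ceacam1 (0.0462). Ceacam1, which was at 6409 ± 23.4 CPM in KO and 3624 ± 196 CPM in WT, is an adhesion molecule of the epithelial surface. Clca3a1 had Ncoa7 (0.0776), Pgap1 (0.0867) and Lgr5 (0.0928) nearest to it, and Clca3a2 had Paqr8 (0.0800), Pcsk1n (0.0876) and Gabbr1 (0.117). Lgr5, a receptor of crypt base stem cells, was at 15.5 ± 0.352 CPM in KO and 5.19 ± 1.06 CPM in WT.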

How the data were processed

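The authors deposited raw gene-level counts for 31227 Ensembl IDs in 4 libraries, and each column was matched by its title and 0 were left over. Per the labels' protocols, 1.5 µg of RNA went into each library. The submitters' processing notes name GRCm38, StringTie 1.3.3b, SAMtools 1.9, HISAT2 2.1.0 and FastQC 0.19.7, and do not say which of them made the counts. Strand use, read length and the handling of reads with several matches are likewise not stated. GENCODE M21 named 31207 of the IDs.

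Of 19618 genes with a count, filterByExpr kept 15838, and all 7 members passed it; Clca2 met its limit of 0.171 CPM in 2 or more libraries through both WT libraries and KO replicate 1. The quasi-likelihood F test of edgeR 4.0.16, run in R 4.3.3 on TMM-scaled libraries, had genotype as the only term and Benjamini-Hochberg adjustment over all tested genes. Changes are KO over WT, and an SE is the log2 fold change over the root of its F statistic. Alternatives were other scalings and filters, DESeq2 1.42.0, limma-voom (limma 3.58.1), leaving out each library, added counts of paralogues, the longest transcript as length, and a 1000 kb window.

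Transcripts were aligned pairwise with free ends. A planned comparison of proteins was not run. The named genes are the members, from each list the 4 with the smallest p and the most abundant, the neighbours called or nearest, and the 3 most similar profiles; some are given through counts only. Slc26a3, Epcam, Itpr3, Trpv6, Car1, Lyz2, Csf1r, Cd4 and Krt13 were added after their values were seen. The members and lists were chosen with earlier results of these data known. The limit given for a count of 0 covers counting error only, because PCR duplicates inflate counts.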

Additional observations from a re-analysis of the deposited data

How the results depend on the processing

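Under the other scalings, filters and tests, and with each library left out, the log2 fold change of the members kept its sign wherever it was fitted; with a filter of 1 CPM Clca2 was not fitted. Since the same libraries chose the family, this is a description. Leaving out a library gave 975 to 2573 called genes in all, 547 to 1504 higher and 425 to 1069 lower, against 2412, 1398 and 1014. DESeq2 called 1524 lower. Leave-one-out counts were 3 to 8 higher and 3 to 6 lower for goblet genes, 1 to 2 higher for chloride genes, 3 to 6 higher and 1 to 3 lower for mucin-processing genes, and 0 to 1 for the chromosome 3 neighbours. Higher chloride genes were 2 with no filter, with a filter of 1 CPM and by limma-voom, and 4 by DESeq2. Called neighbours were 2 by DESeq2 and 3 in the 1000 kb window. The log2 ratio of the summed family was 0.27, and 0.22 from library totals. The log2 fold change of Lypd8 was 0.012, and -0.040 with library totals and -0.012 to 0.026 with a library left out. Except where fewer samples or a wider window is the alternative itself, the cause was not tested. No paired analysis was made, because the labels name no pairing. The genotypes share only replicate number 1, and nothing says that a shared number marks a pair.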

Other observations

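Per Epcam, a surface marker of all epithelial cells, Clca4b was at 1.28 and 1.16 in the KO libraries and 0.305 and 0.281 in the WT libraries. Epcam was itself 1.23-fold higher in KO (edgeR adjusted p = 0.0320). The ratio of Clca4b to Clca1, genes whose transcripts share no 50-base stretch, was 1.12 and 1.18 in KO and 0.124 and 0.115 in WT, a 9.62-fold difference of means. That of Clca3b to Clca1 was 0.532 and 0.552 in KO and 0.155 and 0.160 in WT. In all 3 ratios the libraries of a genotype lay close together and the genotypes did not overlap. These values share the comparison that chose the family and are given without a test.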
